A study of Mus musculus with 12 samples.

Results

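The 44 genes that encode collagen chains, found by their symbols among the 23185 array entries with a single gene name, were followed through skeletal muscle of mice injected with the chemokine IL-8, with the chemokine KC or with vehicle. The 12 Affymetrix Mouse Gene arrays fell into 3 of the vehicle group (replicates 1, 2 and 4 in the labels), 4 of the KC group and 5 of the IL-8 group. The vehicle and IL-8 mice were wild-type male C57BL/6J, 8 weeks old. Over 6 days they were given, on alternate days and by the intraperitoneal route, either the 0.1% BSA carrier or human IL-8 protein at 50 µg/kg in that carrier, and the tibialis anterior was taken on day 7. KC (Cxcl1), a mouse chemokine of the same receptor family, was given at 50 µg/kg on the same schedule according to the labels, whose tissue field says only skeletal muscle. The extraction text in the labels of all 12 mouse samples describes surgical biopsies of a human abdominal muscle, which conflicts with their organism and treatment, and the study's methods were followed here. For KC, neither the age of the mice nor the day of harvest is given in the labels or methods. No other treatment is named for any group. The methods describe the vehicle and IL-8 arrays as muscles of as many mice, but for KC no source says whether each array came from a separate mouse, and p-values measure the spread between these arrays. All values are log2 RMA values, for which a difference of 1 is a doubling.

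Collagens are built from 3 chains wound into a triple helix, and the chain genes differ in what that helix becomes. Fibrillar collagens form the rope-like fibers of tendon and of the sheaths around muscle fibers, type IV forms the sheet of the basement membrane that encloses each fiber and capillary, and type VI forms beaded filaments that link fibers to that sheet. In skeletal muscle most fibrillar and type VI chains come from fibroblasts and fibro-adipogenic progenitors (FAPs, the resident stromal cells), tendon cells make type I in excess, and type IV α1 and α2 chains come from endothelial cells and other cells that rest on a basement membrane. Accumulation of these chains is the substance of muscle fibrosis. By class the 44 genes comprised 11 fibrillar, 6 type IV, 6 type VI, 1 type VII, 3 short-chain network, 9 fibril-associated (FACIT), 4 membrane-spanning and 2 multiplexin chains, with 2 others.

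Among the 44 genes, only the paired type IV genes Col4a1 and Col4a2 stood above every vehicle array in both injected groups, as did 0.556% of all genes. None of the 44 stood below every vehicle array in both, as did 0.958% of all genes. The comparisons share the vehicle arrays and the 2 genes share their promoter region, so these are not separate observations. These genes lie head to head on chromosome 8, with Col4a1 on the minus strand at chr8:11198423-11312889 and Col4a2 on the plus strand at chr8:11312805-11449287 (GRCm38.p6, RefSeq), so that the annotated genes overlap by 85 bases. The 250 bases before the transcription start used for each window are shown because the pair starts side by side, although the 2 windows overlap by 0 bases. Those of Col1a2 and Col11a1, 2 of the 4 genes that varied most between arrays, are shown with them. The transcription starts used for Col4a1 and Col4a2 lie 21 bases apart. Each window lies inside the partner gene, just past that start of the partner, and the stretch between the 2 starts is in neither window. The annotated Col4a1 and Col11a1 genes begin farther upstream, at 11312889 and 114030479. The bases of these 2 windows nearest the start therefore lie inside the annotated gene. Sequences are RefSeq windows of GRCm38.p6, written 5′ to 3′ on the strand of the gene, and capitals mark every match to CCAAT or GGGCGG or to their reverse complements ATTGG and CCGCCC.
Col4a1 (chr8:11312827-11313076, minus): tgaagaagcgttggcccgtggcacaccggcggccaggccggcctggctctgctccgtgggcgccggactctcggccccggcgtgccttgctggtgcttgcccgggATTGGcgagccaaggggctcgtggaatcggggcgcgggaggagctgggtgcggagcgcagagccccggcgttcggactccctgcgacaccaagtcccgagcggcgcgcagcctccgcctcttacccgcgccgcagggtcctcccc
Col4a2 (chr8:11312555-11312804, plus): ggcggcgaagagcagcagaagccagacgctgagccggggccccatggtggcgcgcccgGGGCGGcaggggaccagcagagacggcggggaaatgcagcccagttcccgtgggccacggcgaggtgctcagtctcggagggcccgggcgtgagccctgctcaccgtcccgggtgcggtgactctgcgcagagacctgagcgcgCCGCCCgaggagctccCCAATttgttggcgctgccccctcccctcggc
Col1a2 (chr6:4505368-4505617, plus): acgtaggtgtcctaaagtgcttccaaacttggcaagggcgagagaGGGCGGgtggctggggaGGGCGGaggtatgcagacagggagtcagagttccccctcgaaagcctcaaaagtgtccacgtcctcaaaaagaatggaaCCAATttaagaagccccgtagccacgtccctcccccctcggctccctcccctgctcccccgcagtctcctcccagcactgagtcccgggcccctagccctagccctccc
Col11a1 (chr3:114030290-114030539, plus): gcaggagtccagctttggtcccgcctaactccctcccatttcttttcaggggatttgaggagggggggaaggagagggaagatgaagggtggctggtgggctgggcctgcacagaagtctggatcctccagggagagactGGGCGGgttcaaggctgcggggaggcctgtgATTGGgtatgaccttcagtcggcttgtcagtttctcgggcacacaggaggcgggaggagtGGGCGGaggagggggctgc
CCAAT, on either strand, was found in 33.8% of all 32851 windows of this length in the table. It was found in 13 of the 38 windows of the 35 collagen chain genes that have a window. GGGCGG was found in 32.7% of all windows and in 22 of these 38, and TATAAA in 12.4% of all windows and in 5 of the 38. The Col4a1 window held 1 CCAAT match, on the reverse strand 145 bases before the start, and the Col4a2 window held 1 at 32 bases and 2 GGGCGG matches at 48 and 192 bases. In the Col1a2 window CCAAT stood 109 bases and GGGCGG 188 and 205 bases before the start, and in the Col11a1 window 79, and 19 and 110 bases. None of the 4 windows held TATAAA. These are matches of letters and no binding was measured.

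Before the comparisons, 2 features of the arrays are given first, because results on the collagen genes rest on them. Transcripts of the liver were high in vehicle replicates 2 and 4 and IL-8 replicate 1, where the mean of 8 liver markers was 5.67 to 6.51, against 2.65 to 3.30 in the other 9 arrays. Transcripts of tendon were high in 6 arrays, vehicle replicates 2 and 4, KC replicates 2 and 4 and IL-8 replicates 1 and 4, where the mean of 8 tendon markers (among them Scx, the tendon transcription factor, and Tnmd, tenomodulin) was 6.29 to 7.44, against 4.22 to 5.50 in the other 6. Each group therefore held 2 tendon-high arrays, of 3 vehicle, 4 KC and 5 IL-8 arrays, and all 3 liver-high arrays were also tendon-high. The muscle identity of all arrays was plain, with Ckm, muscle creatine kinase, at 11.92 to 12.58 and Acta1, skeletal α-actin, at 11.91 to 12.47. In such bulk RNA, more cells of a type and more RNA per cell cannot be told apart.

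Col4a1 and Col4a2, whose chains assemble as a unit of 2 α1 and 1 α2, were higher in IL-8 muscle than in vehicle muscle. Col4a2 read 5.86, 5.42 and 5.64 in the vehicle arrays and 6.45, 6.54, 6.17, 6.24 and 6.01 in the IL-8 arrays, so that the lowest IL-8 array lay above the highest vehicle array. The difference was 0.64 (SE 0.15), or 1.56-fold, with an adjusted p of 0.093, and Col4a2 was the only 1 of 44 collagen chain genes called, a call being a fold change of 1.5 or more with an adjusted p of 0.1 or less. Of all 23185 genes, 2.55% were called in this comparison (1.75% higher, 0.802% lower), so 1 called of 44 is close to the background. Col4a1 read 6.39, 6.31 and 6.47 in the vehicle arrays and 6.87, 7.04, 6.89, 6.59 and 6.74 in the IL-8 arrays, again without overlap, for a difference of 0.43 (SE 0.13), 1.35-fold, which missed both limits (adjusted p = 0.114). Taken alone, each gene reached the smallest value the exact two-sided permutation test can give with 5 against 3 arrays, p = 0.0357. Groups that do not overlap always give that value, so it is no separate evidence. Col4a1 and Col4a2 were the only 2 of the 44 genes whose groups did not overlap, both higher. Of all genes 4.6% did not overlap upward and 11% in either direction, so 2 of 44 is close to the background. The call of Col4a2 was near the threshold and was lost without vehicle replicate 2 (0.53, adjusted p = 0.324), vehicle replicate 4 or any 1 of IL-8 replicates 2 to 5, while the difference stayed between 0.53 and 0.76 and the unadjusted p at 0.0101 or less.

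The same pair had higher means in KC muscle than in vehicle muscle, and neither gene was called. Col4a1 read 6.67, 7.43, 6.91 and 6.97 in the KC arrays, all above the vehicle range, a difference of 0.60 (SE 0.18) and a fold of 1.52. For Col4a2 the KC arrays read 5.95, 6.76, 6.00 and 5.99, also all above vehicle, a difference of 0.53 (SE 0.22). They were the 2 of 44 genes whose KC and vehicle arrays did not overlap, both higher. Of all genes 2.5% did not overlap upward and 4.94% in either direction, so 2 of 44 is close to the share in either direction. Without KC replicate 2, the highest array for both genes, the differences were 0.46 and 0.34. Neither gene passed the test across all genes (adjusted p = 0.994 for both), in which 0 of 23185 genes were called in KC against vehicle (background 0%) and 3.98% had an unadjusted p under 0.05. With 4 against 3 arrays the exact permutation test cannot go below p = 0.0571, the value that both genes gave. Here too it follows from the lack of overlap. The KC and IL-8 comparisons used the same 3 vehicle arrays, so low vehicle values of the pair enter both. Between the injected groups the arrays of both genes overlapped, with IL-8 minus KC at -0.17 (SE 0.15, adjusted p = 0.572) for Col4a1 and 0.11 (SE 0.18, adjusted p = 0.771) for Col4a2.

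**Figure D1:**
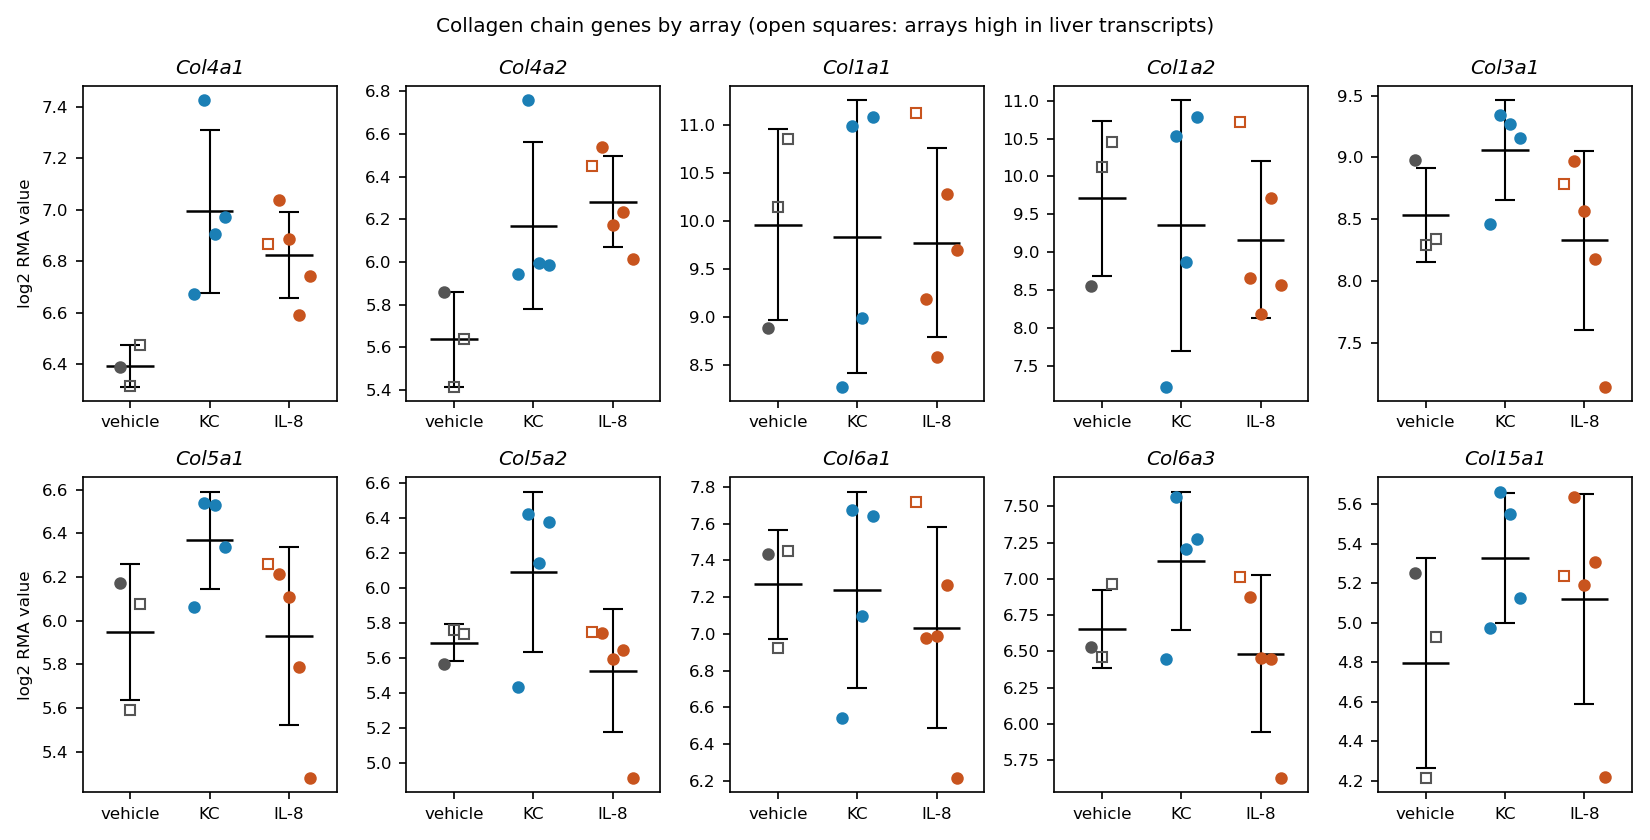
Log2 RMA values (vertical axes) of 10 collagen chain genes in each array, by group, with the group mean and SD as bars and the liver-high arrays as open squares. For Col4a1 and Col4a2 every injected array lies above the 3 vehicle arrays, whereas Col1a1 and Col1a2 spread widely and overlap in all 3 groups, most widely in KC, and IL-8 replicate 5 is the lowest point for Col3a1, Col5a1, Col5a2, Col6a1 and Col6a3.

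Both genes were also compared on either side of the liver split, where 1 side of each value holds only 1 or 2 arrays. Within the liver-high arrays, IL-8 replicate 1 exceeded the mean of vehicle replicates 2 and 4 by 0.92, and within the others the 4 IL-8 arrays exceeded vehicle replicate 1 by 0.38 on average. For Col4a1 these differences were 0.48 and 0.42. The values of both genes did not overlap between vehicle and either injected group. A positive sign on each side of the split, and for KC below, was therefore fixed in advance and is no separate test. For KC, where only the vehicle group held liver-high arrays, the KC mean exceeded vehicle replicate 1 alone by 0.60 for Col4a1 and 0.31 for Col4a2. In IL-8 against vehicle a block for these arrays left the Col4a2 difference at 0.63 (adjusted p = 0.252) and that of Col4a1 at 0.45 (adjusted p = 0.307), and neither was called. The mean of 10 endothelial markers was 4.95 to 5.96 in vehicle, 5.06 to 5.63 in KC and 5.46 to 5.85 in IL-8 muscle, so both injected groups lay inside the vehicle range, and vehicle replicate 1 was the highest of the 12 arrays. In IL-8 against vehicle 2 of the 10, Vwf and Robo4, were called higher and 0 lower, where 1.75% and 0.802% of all genes were. The median difference of the 10 was 0.42, against -0.07 over all genes, and 3 of the 10 were below 0, among them Cldn5, a tight junction protein, at -0.51 without overlap (SE 0.14, adjusted p = 0.101). With the endothelial mean as a covariate, chosen after the values were seen, the IL-8 difference was 0.54 for Col4a2 and 0.40 for Col4a1, and neither was called. Col4a2 followed the endothelial mean over the 12 arrays at r = 0.555 (permutation p = 0.0607) and Col4a1 at r = 0.27 (permutation p = 0.396), and r fell to 0.155 and -0.211 without the 2 arrays farthest from the median.

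The remaining 4 type IV genes, whose chains form the specialized basement membranes of kidney, lung and smooth muscle, read between 2.52 and 3.51 and showed no like difference. Col4a5, the chain with the smallest p of the higher members in IL-8 against KC, read 3.36, 3.25 and 3.32 in vehicle, 2.98, 3.39, 3.39 and 3.02 in KC and 3.45, 3.43, 3.50, 3.51 and 3.10 in IL-8 muscle. Its difference from KC, 0.21 (SE 0.13), had an adjusted p of 0.412, and its groups overlapped. Differences of Col4a3, Col4a4 and Col4a6 ran from -0.15 to 0.13 over the 3 comparisons.

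The multiplexins Col15a1 and Col18a1 make collagens that anchor the basement membrane to the surrounding matrix. Col15a1 read 5.25, 4.21 and 4.93 in vehicle, 4.97, 5.66, 5.55 and 5.13 in KC and 5.24, 5.64, 5.19, 5.31 and 4.22 in IL-8 muscle, with vehicle replicate 2 and IL-8 replicate 5 far below the rest. Its difference from vehicle was 0.53 (SE 0.26, adjusted p = 0.994) for KC and 0.32 (SE 0.31, adjusted p = 0.557) for IL-8. Col18a1, the source of endostatin, read 3.89, 3.73 and 3.95, 3.57, 3.86, 3.89 and 4.12 and 4.17, 4.01, 3.98, 3.94 and 3.56 in the same order, with IL-8 minus vehicle at 0.07 (SE 0.15).

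Basement membrane partners of type IV collagen, a list of 11 laminin, nidogen, perlecan and related genes, had 0 members called in IL-8 against vehicle (2.55% of all genes). At an unadjusted p under 0.05, 5 were higher and 0 lower (10.1% and 11.6% of all genes). The median difference of the list was 0.37, against -0.07 over all genes. Lamb2, the laminin β2 chain, was higher by 0.58 (SE 0.16, adjusted p = 0.107) without overlap, and Lama5, the laminin α5 chain, by 0.70 (SE 0.19, adjusted p = 0.107). In IL-8 against KC, Lama5 was the 1 member called, at 0.63 (SE 0.17, adjusted p = 0.0823), where 3.02% of all genes were called.

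No chain of the major interstitial fibers was called against vehicle. Of all genes 2.55% were called in IL-8 and 0% in KC muscle, so 0 of 11 fibrillar genes is close to the background. The 11 fibrillar genes differed from vehicle by -0.54 to 0.07 in IL-8 muscle, with a median of -0.16 and a smallest adjusted p of 0.579. In KC muscle they differed by -0.36 to 0.52, with a median of 0.03. Col1a1, the α1 chain of type I collagen and the classic index of fibrosis, read 8.89, 10.15 and 10.86 in vehicle, 8.28, 10.99, 8.99 and 11.09 in KC and 11.13, 9.19, 8.59, 10.29 and 9.70 in IL-8 muscle. The group means of Col1a1, 9.96 ± 1.00 (SD, n = 3), 9.84 ± 1.42 (n = 4) and 9.78 ± 0.98 (n = 5), lay far closer together than the arrays within any group. Its partner Col1a2 read 8.55, 10.12 and 10.46, 7.23, 10.53, 8.88 and 10.78 and 10.71, 8.66, 8.18, 9.72 and 8.57 in vehicle, KC and IL-8 muscle, and differed from vehicle by -0.54 (SE 0.58, adjusted p = 0.597) in IL-8 and by -0.36 (SE 0.79) in KC muscle. The standard errors of this pair against vehicle, 0.56 to 0.79, exceeded every difference measured, so changes of that size were not detectable here.

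Col3a1, Col5a1, Col5a2 and Col6a3 had lower means in IL-8 than in KC muscle, with an unadjusted p under 0.05 each, and none was called. Col3a1, the type III chain of the fine fibers around muscle fibers, read 8.46, 9.34, 9.27 and 9.15 in KC and 8.79, 8.97, 8.57, 8.18 and 7.14 in IL-8 muscle, with vehicle at 8.98, 8.29 and 8.34. IL-8 minus KC was -0.73 (SE 0.33, adjusted p = 0.247, exact permutation p = 0.0952). The type V chains set the diameter of growing fibrils. Col5a1 read 6.06, 6.54, 6.53 and 6.34 in KC, 6.26, 6.22, 6.11, 5.79 and 5.28 in IL-8 and 6.17, 5.59 and 6.08 in vehicle muscle, and IL-8 lay 0.44 (SE 0.20) below KC on the log2 scale (adjusted p = 0.244). For Col5a2 the values were 5.43, 6.42, 6.14 and 6.37, 5.75, 5.74, 5.59, 5.64 and 4.91 and 5.56, 5.76 and 5.74, and the difference was -0.56 (SE 0.22, adjusted p = 0.192). Col6a3, the largest type VI chain, read 6.45, 7.57, 7.20 and 7.28 in KC, 7.01, 6.88, 6.46, 6.45 and 5.63 in IL-8 and 6.53, 6.46 and 6.96 in vehicle muscle, a difference of -0.64 (SE 0.28, adjusted p = 0.235). Groups overlapped for all 4 genes, since KC replicate 1 was low.

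None of the 44 genes was called in IL-8 against KC, where 3.02% of all genes were called (1.61% higher, 1.41% lower). At an unadjusted p under 0.05, 4 of 44 members were lower and 0 higher, against 11.1% and 8.76% of all genes, so 4 of 44 (9.09%) is no larger a share than the background. The 4 differences rested in part on single arrays. Without IL-8 replicate 5 the differences shrank to -0.43, -0.27, -0.41 and -0.43 for Col3a1, Col5a1, Col5a2 and Col6a3. Without KC replicate 1 they were -0.93, -0.54, -0.78 and -0.87, and Col5a2 and Col6a3 were called (adjusted p = 0.0325 and 0.0732). In that setting 1741 of all 23185 genes were called, so 2 of 44 is no larger a share than the background. With the block for liver-high arrays they were -0.84, -0.52, -0.62 and -0.77, and none was called. Against vehicle the 4 genes differed by 0.41 to 0.52 in KC muscle, the smallest unadjusted p being 0.0507 for Col5a1, and by -0.21 to -0.02 in IL-8 muscle. IL-8 replicate 5 was the lowest of the 12 arrays for 15 of the 44 genes and KC replicate 1 for 9, whereas KC replicates 2 and 4 were the highest for 11 and 9.

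**Figure D2:**
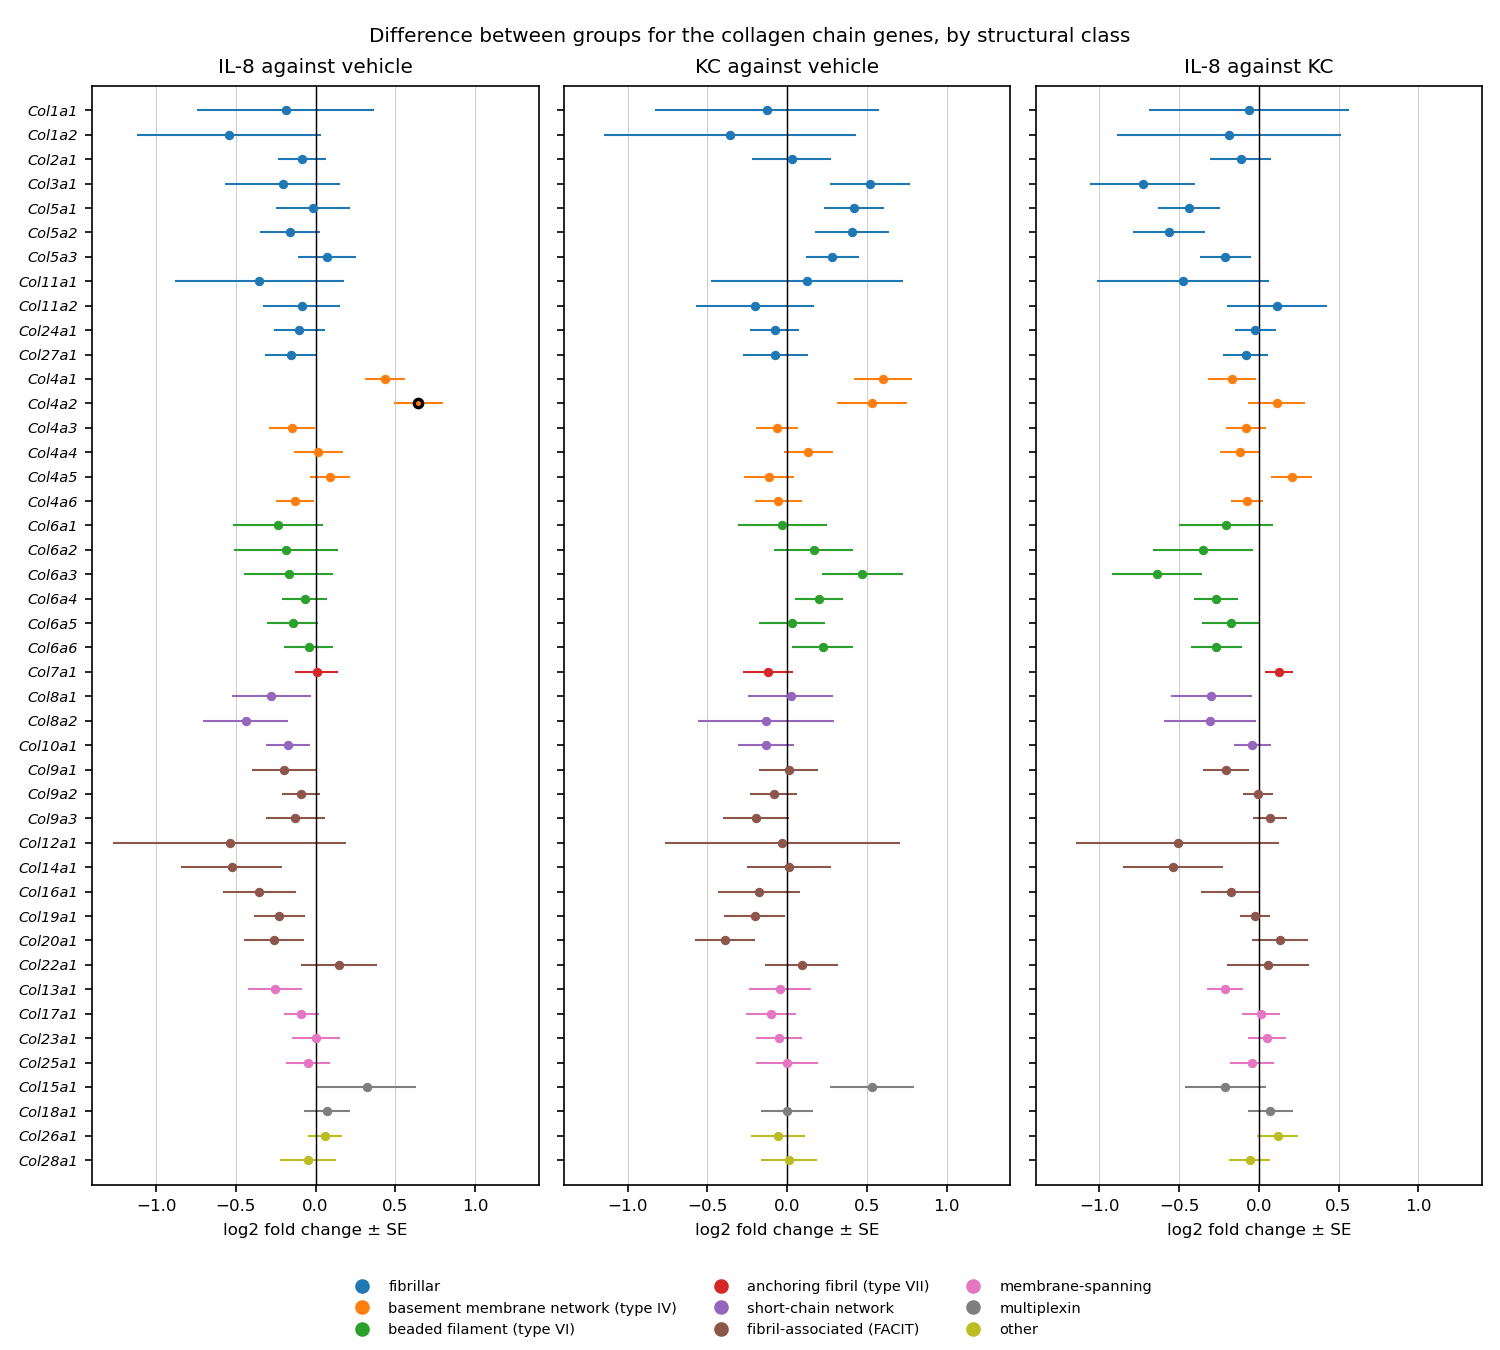
Differences on the log2 scale (horizontal axes, point ± SE from limma) for the 44 collagen chain genes in each of the 3 comparisons, colored by structural class, with the 1 called gene outlined in black. Col4a1 and Col4a2 lie to the right of 0 against vehicle in both injected groups, and Col1a1, Col1a2, Col11a1 and Col12a1 carry the widest bars.

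Type VI collagen needs an α1, an α2 and an α3 (or α3-like) chain, and its loss causes congenital muscular dystrophy in patients. Col6a1 read 7.43, 6.93 and 7.45 in vehicle, 6.54, 7.67, 7.10 and 7.64 in KC and 7.72, 6.98, 6.99, 7.26 and 6.22 in IL-8 muscle. Col6a2 read 7.37, 6.81 and 7.05, 6.72, 7.74, 7.04 and 7.49 and 7.56, 7.15, 6.87, 7.08 and 5.81 in that order. Differences from vehicle ranged from -0.24 to -0.04 over the 6 type VI genes in IL-8 muscle and from -0.03 to 0.47 in KC muscle, with 0 called. Of all genes 2.55% and 0% were called in these 2 comparisons. IL-8 replicate 5 was the lowest array for Col6a1, Col6a2 and Col6a3. Col6a4 and Col6a5 read 2.19 to 3.31 and Col6a6 read 4.46 to 5.39.

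Of the members lower in IL-8 muscle than in vehicle, the short-chain gene Col8a2 and the FACIT genes Col14a1 and Col16a1 had the smallest p, and none was called. The FACIT gene Col12a1 had a lower difference than these 3, -0.54, with an SE of 0.73. Col8a2 read 2.74, 3.88 and 4.05 in vehicle, 2.93, 3.09, 3.01, 3.46 and 3.09 in IL-8 and 2.58, 3.72, 3.05 and 4.34 in KC muscle, and IL-8 minus vehicle was -0.44 (SE 0.27, adjusted p = 0.35). Col14a1, a chain that binds decorin on fibrils, read 5.35, 5.02 and 4.78, 4.93, 4.83, 4.87, 4.59 and 3.41 and 4.36, 5.53, 5.11 and 5.25, a difference of -0.53 (SE 0.32, adjusted p = 0.35) that was -0.25 without IL-8 replicate 5. For Col16a1 the values were 4.63, 5.58 and 5.30, 5.28, 4.87, 4.63, 4.80 and 4.50 and 4.59, 5.14, 4.84 and 5.40, and the difference was -0.35 (SE 0.23, adjusted p = 0.379). In all 3 genes the groups overlapped. Without vehicle replicate 1, the 1 vehicle array low in tendon and liver transcripts, Col8a2 and Col16a1 were called lower (-0.85 and -0.63), and 3338 genes in all were called.

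In KC muscle the smallest p among lower members belonged to Col20a1, Col19a1 and Col9a3, all FACIT chains. Col20a1 read 3.42, 3.79 and 3.86 in vehicle, 3.38, 3.45, 3.45 and 2.90 in KC and 3.36, 3.76, 3.66, 3.41 and 2.94 in IL-8 muscle, and KC minus vehicle was -0.39 (SE 0.19, adjusted p = 0.994). Col19a1 read 2.35, 3.10 and 2.92, 2.73, 2.63, 2.56 and 2.42 and 2.56, 2.53, 2.62, 2.58 and 2.53, and Col9a3 read 3.00, 3.89 and 3.60, 3.13, 3.39, 3.39 and 3.29 and 3.17, 3.36, 3.51, 3.39 and 3.43. Both had vehicle replicate 1 as the lowest array and vehicle replicate 2 as the highest. Their KC differences were -0.20 (SE 0.19) and -0.20 (SE 0.21).

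Col7a1, the anchoring fibril chain of skin, was the only 1 of 44 genes whose IL-8 and KC arrays did not overlap (2.48% of all genes upward, 6.68% in either direction). It read 3.36, 3.36, 3.46 and 3.45 in KC, 3.46, 3.66, 3.51, 3.49 and 3.53 in IL-8 and 3.25, 3.52 and 3.80 in vehicle muscle, so both injected groups lay inside the vehicle range, and the difference was 0.13 (SE 0.09, adjusted p = 0.464). Col26a1 read 3.42, 3.44, 3.03 and 3.67 in KC, 3.48, 3.63, 3.57, 3.44 and 3.42 in IL-8 and 3.39, 3.43 and 3.53 in vehicle muscle, with IL-8 minus KC at 0.12 (SE 0.13, adjusted p = 0.649). Collagens of the fiber's own junctions, named here for their place in muscle and not for their values, showed no called difference. Col22a1, found at the myotendinous junction, read 4.15, 4.05 and 4.21 in vehicle, 3.89, 4.74, 3.81 and 4.46 in KC and 4.47, 3.89, 3.83, 4.22 and 5.01 in IL-8 muscle, with IL-8 replicate 5 highest, and Col13a1 of the neuromuscular junction differed from vehicle by -0.26 (SE 0.17, adjusted p = 0.387) in IL-8 muscle.

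Over all 44 genes the median difference was -0.13 in IL-8 against vehicle, -0.02 in KC against vehicle and -0.11 in IL-8 against KC, where the medians of all 23185 genes were -0.07, -0.004 and -0.05. In IL-8 against vehicle 33 of the 44 differences were below 0, as were 61.3% of all genes. In KC against vehicle 24 were below 0 (50.9% of all genes), and in IL-8 against KC 33 (59% of all genes).

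Some collagen chain genes varied between arrays of one group more than most genes did, and others did not. The median SD within groups was 0.262 over the 44 genes and 0.219 over all genes, and 12 of the 44 lay in the top 5% of genes. Others lay below the median gene, among them Col9a2 (SD 0.119) and Col4a6 (SD 0.128). The mean value of 31 of the 44 was above that of the median gene. Col12a1, a FACIT chain abundant in tendon, had an SD of 1.28, Col1a2 of 1.27, Col1a1 of 1.15 and Col11a1 of 1.01, exceeded by 0.151% to 0.28% of genes. Col12a1 and Col11a1 were singled out after their values were seen. Across its 12 arrays Col12a1 ran from 3.70 in IL-8 replicate 3 to 7.20 in KC replicate 4, and Col11a1 from 3.33 to 6.09 in the same arrays.

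**Figure D3:**
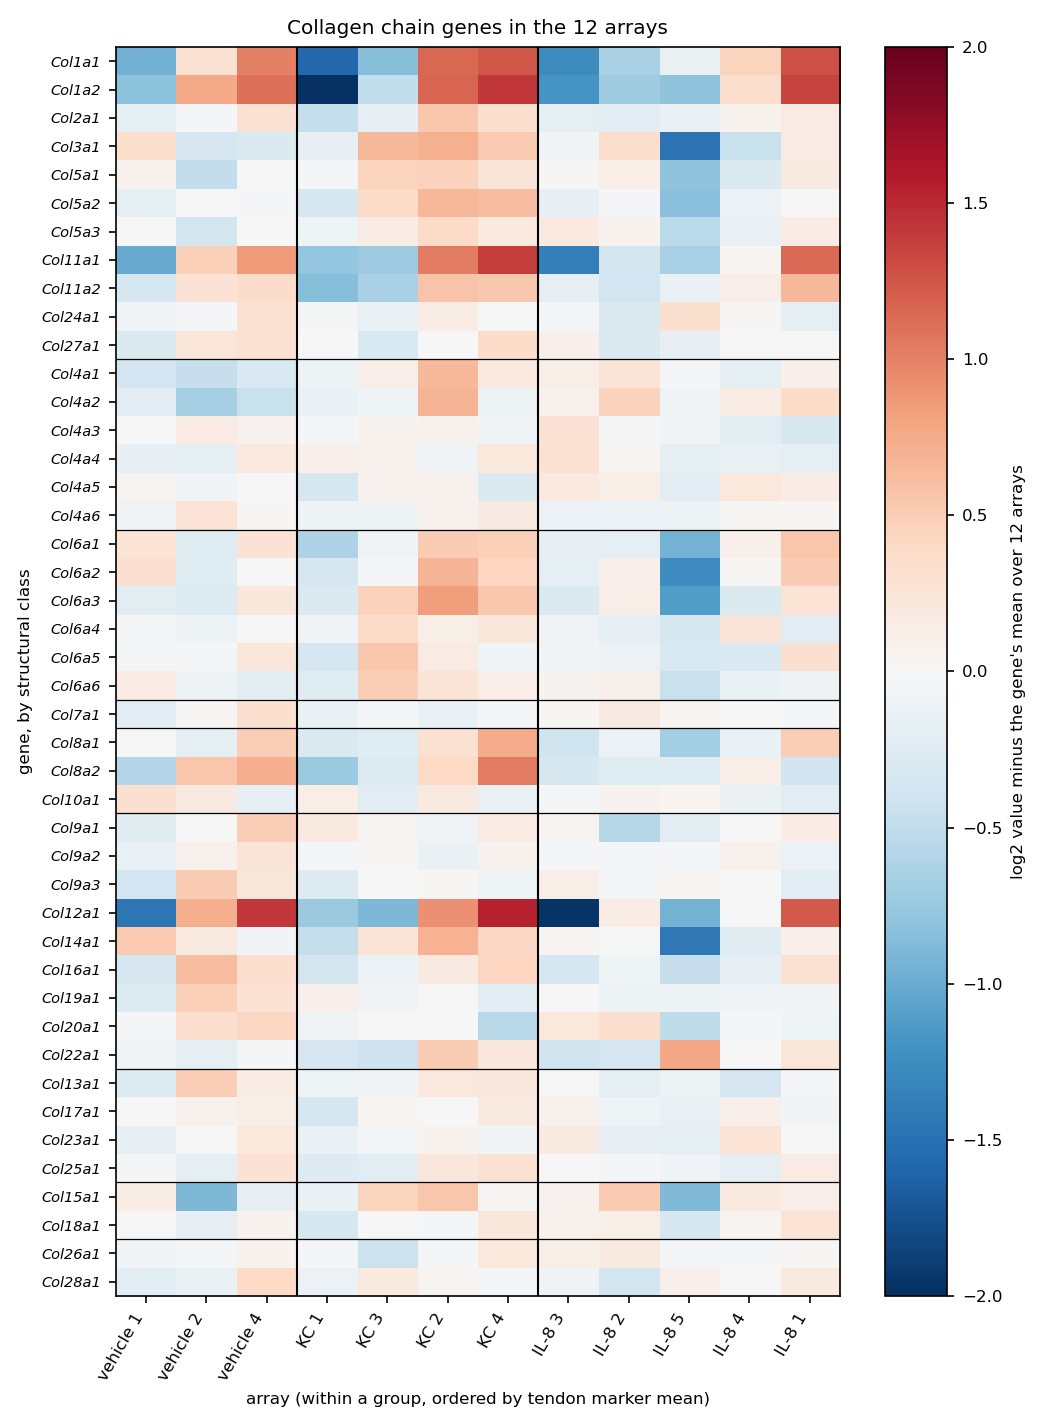
Each cell gives the log2 value of a collagen chain gene (rows, by structural class) in an array (columns) minus the gene's mean over the 12 arrays, with arrays of a group ordered by their tendon marker mean, and the color scale ends at 2 in either direction. Col1a1, Col1a2 and Col11a1 turn from blue to red within each group as tendon markers rise. Col12a1 does so in vehicle and KC but not in IL-8, where replicate 2 (5.81) lies above and replicate 5 (4.71) below its mean of 5.65. Col4a1 and Col4a2 are below their means in the 3 vehicle arrays.

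The variation of type I, XI and XII chains followed tendon transcripts. The 6 arrays highest for Col1a1 (10.15 to 11.13, against 8.28 to 9.70 in the others) were the 6 tendon-high arrays, and the same 6 arrays were highest for Col1a2, Col2a1, Col11a1, Col11a2 and Col4a6, 6 of 44 genes in all, where 0.492% of all genes had this order. Over the 12 arrays the tendon marker mean and Col1a1 correlated at r = 0.964 (Spearman's rho = 0.951, permutation p = 4e-05, adjusted p = 0.00176 over 132 relations of the 44 genes with tendon, fibroblast and endothelial marker means). The correlation was 0.951 without the 2 arrays farthest from the median, 0.973 over the 9 arrays that were not liver-high, and 0.724 and 0.811 within the tendon-high and the other 6 arrays. For Col1a2, r was 0.957 (rho = 0.937, permutation p = 2e-05, adjusted p = 0.00132), and 0.96 without the 2 farthest arrays. For Col11a1, r was 0.93, but within the 6 arrays low in tendon transcripts it was 0.124, and for Col12a1, with r = 0.861, it was -0.152 there, so these relations lay between the 2 sets of arrays and within the tendon-high set (0.914 and 0.973). In total 10 of the 44 relations with tendon markers had an adjusted permutation p under 0.05, and 8 had r above 0.8, as did 0.72% of all genes. Col4a1 and Col4a2 did not share it (r = 0.004 and -0.074). With the tendon mean as a covariate, chosen after the values were seen, Col4a2 differed between IL-8 and vehicle by 0.61 and Col4a1 by 0.40, and 0 genes in all were called. The relation was chosen after the arrays were examined, and the part of tendon tissue in it was not tested.

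Another set of chains followed fibroblast and FAP transcripts. The mean of 9 such markers, among them Pdgfra and Dpt, was 6.64 to 7.09 in vehicle, 6.06 to 7.24 in KC and 5.63 to 6.73 in IL-8 muscle, lowest in IL-8 replicate 5. Col14a1 followed it at r = 0.94 (rho = 0.916, permutation p = 1e-05, the smallest these permutations can give, adjusted p = 0.00132), and at 0.869 without the 2 farthest arrays. Col6a1, Col6a2 and Col5a2 followed at r = 0.843, 0.843 and 0.84 (adjusted permutation p = 0.0114 for each), and at 0.563, 0.583 and 0.654 without the 2 farthest arrays, one of which is IL-8 replicate 5. Col3a1 and Col6a3, at r = 0.778 and 0.765, fell to 0.532 and 0.494. Of the 44 genes, 4 had r above 0.8 with these markers, as did 1.07% of all genes. For type III, V and VI chains the relation thus rested in part on the extreme arrays, and its part in the IL-8 and KC difference of these chains was not tested.

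**Figure D4:**
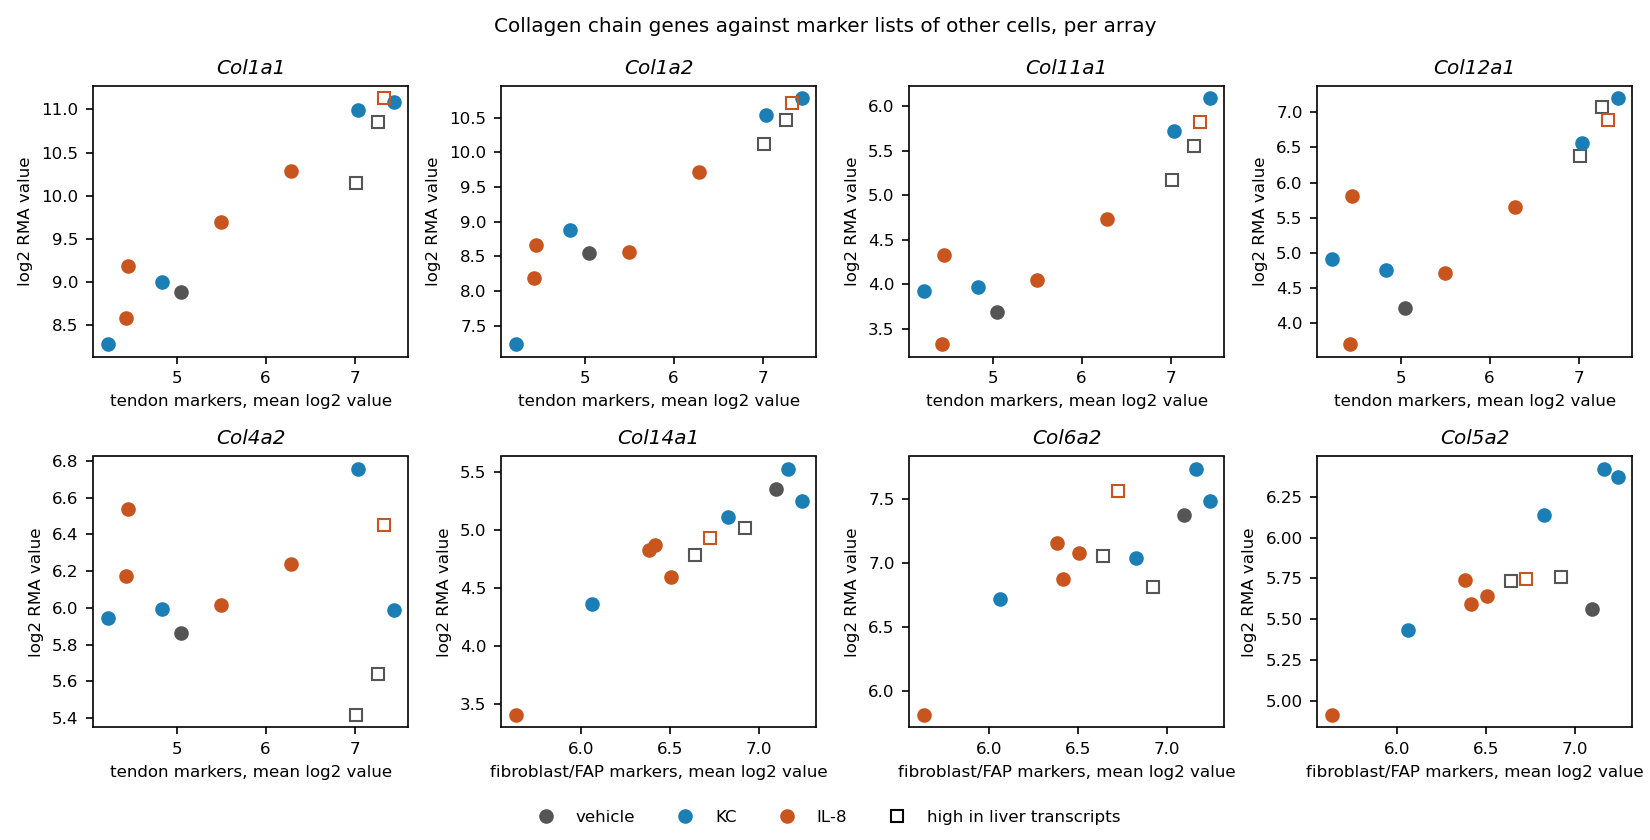
Log2 values of collagen chain genes (vertical axes) against the mean log2 value of 8 tendon markers or 9 fibroblast and FAP markers (horizontal axes), 1 point per array, colored by group, with liver-high arrays as open squares. Col1a1 and Col1a2 climb with tendon markers in every group and Col4a2 does not, while Col14a1, Col6a2 and Col5a2 climb with fibroblast and FAP markers from IL-8 replicate 5 at the lower left.

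Chains that share a triple helix or a fiber were compared across the 12 arrays in 11 pairs. Col1a1 and Col1a2 correlated at r = 0.964 (rho = 0.958, adjusted permutation p = 5.5e-05), and only 3 of the other 23184 genes correlated better with Col1a1. Col6a1 and Col6a2, both on chromosome 10, correlated at 0.93 (rho = 0.895, adjusted permutation p = 5.5e-05), with 7 genes ahead. Col4a1 and Col4a2 correlated at 0.843 (rho = 0.748, adjusted permutation p = 0.00215), with 5 genes ahead, and at 0.644 without the 2 arrays farthest from the median. On deviations from the group means, which remove the vehicle difference, the Col4a1 and Col4a2 correlation was 0.806. Col5a1 and Col5a2 (r = 0.79, rho = 0.713), Col6a1 and Col6a3 (0.797, 0.783) and Col11a1 and Col11a2 (0.862, 0.846) also passed at adjusted permutation p of 0.00424, 0.00394 and 0.00215. Within the 6 arrays low in tendon transcripts Col11a1 and Col11a2 gave -0.262.

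The other 5 pairs did not pass. Col3a1 and Col1a1, which mix in the same fibers although not in the same helix, gave r = 0.076 (rho = 0.098, permutation p = 0.83), and 10490 genes correlated better with Col3a1. Col4a5 and Col4a6 gave -0.17, and Col4a3 and Col4a4 gave 0.495. Col8a1 and Col8a2, at 0.585, had an adjusted permutation p of 0.0743 and fell to 0.143 without the 2 farthest arrays, and Col9a1 and Col9a2 gave 0.527 (adjusted permutation p = 0.111).

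Genes that build, process and remove collagen were counted beside the chains. Of all genes 2.55% were called in IL-8 against vehicle, 0% in KC against vehicle and 3.02% in IL-8 against KC. In lists of 9 to 17 genes, 0 called is therefore close to the background. Of 17 genes for collagen folding and hydroxylation measured, 0 were called in any comparison, and in IL-8 against vehicle Ppib, the cyclophilin B of the prolyl hydroxylase complex, differed by -0.61 (SE 0.19, adjusted p = 0.129) and Plod1, a lysyl hydroxylase, by 0.50 (SE 0.16, adjusted p = 0.138). Of 9 genes for procollagen export, 0 were called, with Sec31a, a coat protein of transport vesicles, higher than vehicle in every IL-8 array by 0.59 on average (SE 0.16, adjusted p = 0.106). Of 13 genes for processing and cross-linking, 0 were called, Tgm2, transglutaminase 2, being at 0.71 (SE 0.23, adjusted p = 0.137) in IL-8 against vehicle. Nor was any of 10 collagen receptors called, with Itga2, the integrin α2 chain, at -0.60 (SE 0.22, adjusted p = 0.159) and Ddr1 at 0.41 (SE 0.15, adjusted p = 0.164). None of the 8 lists had a called member in KC against vehicle.

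Among these lists the calls against vehicle were in inhibitors of collagen breakdown. Of 14 genes for collagen degradation and its inhibitors, 2 rose in IL-8 muscle against vehicle and 0 fell, where 1.75% and 0.802% of all genes did. The median of the 14 was -0.08, close to that of all genes. Timp4, a metalloproteinase inhibitor abundant in muscle and heart, read 5.11, 4.47 and 4.20 in vehicle, 5.68, 5.37, 5.25 and 4.93 in KC and 5.46, 6.21, 6.09, 5.61 and 5.56 in IL-8 muscle, higher than vehicle by 1.19 (SE 0.24, adjusted p = 0.0908). Timp3, the inhibitor that binds to the matrix, read 7.40, 6.73 and 6.87 in vehicle and 7.71, 7.89, 7.69, 7.91 and 7.41 in IL-8 muscle, higher by 0.72 (SE 0.17, adjusted p = 0.0936). In both, the IL-8 and vehicle arrays did not overlap. With the block for liver-high arrays 0 of 23185 genes were called in IL-8 against vehicle, these included. Timp3 also rose against KC, by 0.68 (SE 0.14, adjusted p = 0.0647). It was the 1 gene of this list called there, where 3.02% of all genes were called (1.61% higher).

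Of 14 small proteoglycans and glycoproteins that organize fibrils, 0 were called in either injected group against vehicle, where 2.55% (IL-8) and 0% (KC) of all genes were. Their median difference from vehicle was -0.58 in IL-8 muscle (all genes -0.07), with 12 of 14 below 0 (61.3% of all genes), and -0.36 in KC muscle (all genes -0.004). The other 2, Tnxb, tenascin X, and Postn, periostin, were at 0.26 (SE 0.26) and 0.22 (SE 0.51) in IL-8 muscle. Ogn, osteoglycin, differed by -1.50 (SE 0.41, adjusted p = 0.106). Aspn, asporin, and Vcan, versican, fell in IL-8 against KC by 1.05 (SE 0.27, adjusted p = 0.0792) and 0.79 (SE 0.22, adjusted p = 0.0953) on the log2 scale. They were the 2 of 14 called there, where 3.02% of all genes were called (1.41% lower). Aspn read 6.95, 6.63, 6.37, 6.25 and 5.53 in IL-8, 6.83, 7.37, 7.52 and 7.86 in KC and 7.31, 7.84 and 6.93 in vehicle muscle, with overlap. Postn was the member with the smallest p in KC against vehicle, higher by 0.91 (SE 0.23, adjusted p = 0.994) with its KC and vehicle arrays apart. This list holds Fmod, Kera and Comp, which are also tendon markers. The mean of the list in the tendon-high arrays was 7.13 to 7.92 against 6.28 to 7.31 in the others, a difference not independent of those markers.

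Transforming growth factor β is the chief inducer of fibrillar collagen genes. Of 18 genes of its signaling and known targets, 0 were called in IL-8 against vehicle, where 2.55% of all genes were. At an unadjusted p under 0.05, 6 were higher and 0 lower, where 10.1% and 11.6% of all genes were. The median of the 18 was 0.27, against -0.07 over all genes. Ltbp3, which holds the latent growth factor in the matrix, differed by 0.41 (SE 0.11, adjusted p = 0.0995), under the fold limit, and Smad3 by 0.72 (SE 0.20, adjusted p = 0.109). In IL-8 against KC 1 of 18 was called, Ski, a repressor of the pathway, higher by 0.61 (SE 0.14, adjusted p = 0.0711). Of all genes 3.02% were called there (1.61% higher), so 1 of 18 is close to the background.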

How the data were processed

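For each Entrez gene entry and array the authors deposited 1 log2 value. The submitters' processing notes name RMA, affy 1.36.1 and R 2.15.1. In RMA, probe signals are background-corrected, brought to a common distribution and summarized per gene, so that arrays of unequal brightness become comparable. Of 25206 entries, 23185 had 1 symbol in the platform annotation and were tested, and 2021 without a symbol were not. Arrays have no read depth, and their number limits the precision. Array medians were 3.31 to 3.48, and arrays of a group correlated at 0.965 to 0.991 across genes.

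Members were the symbols that begin with Col, a number, a and a number. The members, the gene lists and the tests were chosen with earlier results of these data known. Each comparison was fitted on its own groups with lmFit and eBayes of limma 3.58.1 in R 4.3.3, with Benjamini-Hochberg adjustment over 23185 genes, and a call needed a fold change of 1.5 or more with an adjusted p of 0.1 or less. These limits are those of the study, whose own tool (GenePattern's comparative marker selection) was not used here. Exact permutation tests of single genes and correlations over arrays (100000 resamples, two-sided, seed 1) used scipy 1.17.1. Named with every array were members called in any comparison, the 3 smallest p in each direction of each comparison and 12 chains of the common muscle collagens. Of each gene list up to 4 called members were named, or up to 2 with the smallest p. On simulated data with 200 of 23185 genes changed, 80 of 100 genes changed by 1 and 95 of 100 changed by 2 on the log2 scale were called for IL-8 against vehicle, with 11 false among 186 calls. In the KC against vehicle simulation 66 and 98 were called (15 false of 179), and in the IL-8 against KC simulation 83 and 99 (4 false of 186). The simulated noise was independent between genes, which real arrays do not grant. Alternatives were all 12 arrays in one fit, quantile normalization, array median centring, dim genes left out, every entry, an intensity trend, array weights, the methods' t-test with unequal variances, a limit of 0.05 on the adjusted p, no fold minimum, a gene span trend removed, a block for liver-high arrays, a replicate block and each array left out. Covariates of tendon and endothelial markers were added after the values were seen. Sequences, gene positions and names are of RefSeq, GRCm38.p6. Figures were drawn with matplotlib 3.10.9.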

Additional observations from a re-analysis of the deposited data

Results flagged for a closer look

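In the KC and IL-8 groups, 88 sets of 4 or 5 arrays were searched for an array far from its neighbors, and 5 were found, where chance gives about 4.4. IL-8 replicate 5 was the low array in 3 of these. It read 4.91 for Col5a2, where the rest of its group read 5.59 to 5.75, 3.10 for Col4a5, against 3.43 to 3.51, and 3.41 for Col14a1, against 4.59 to 4.93. KC replicate 2 read 6.76 for Col4a2, against 5.95 to 6.00 in the other KC arrays. KC replicate 4 read 2.90 for Col20a1, against 3.38 to 3.45. No collagen chain gene moved one way in every KC array and the opposite way in every IL-8 array, and 0 of 44 were called in IL-8 against KC.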

How the results depend on the processing

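The single called collagen gene of IL-8 against vehicle, Col4a2, was close to the threshold. The count was 0 with all 12 arrays in one fit, quantile normalization, the methods' t-test, an adjusted p of at most 0.05, the gene span trend removed, the liver block, the tendon covariate or the endothelial covariate, and also 0 with the replicate block. It stayed at 1 with median centring, dim genes left out, every entry, an intensity trend, array weights or no fold minimum. Leaving out 1 array gave 0 to 3 calls in IL-8 against vehicle, 3 of them without vehicle replicate 1 (Col4a2, Col8a2 and Col16a1), and 0 to 2 in IL-8 against KC (Col5a2 and Col6a3 without KC replicate 1). The Col4a2 difference was 0.50 (quantile normalization) to 0.77 (replicate block) with each planned or added setting, and its unadjusted p stayed at 0.0145 or less. Over all genes the 592 calls of this comparison rose to 660 with median centring, 729 with no fold minimum, 944 with dim genes left out and 2083 with array weights, and fell to 561 with every entry, 501 with an intensity trend, 117 with all 12 arrays in one fit, 49 with the span trend removed, 2 with quantile normalization or an adjusted p of at most 0.05, and 0 with the methods' t-test, the liver block, the replicate block or either covariate. The cause was not tested. Leaving out 1 array gave 0 to 3338. In IL-8 against KC the 700 calls over all genes ran from 0 to 1741 when 1 array was left out, rose to 1130 with the liver block, 1147 with no fold minimum and 1193 with array weights, and fell to 1 with all 12 arrays in one fit or an adjusted p of at most 0.05 and to 0 with the methods' t-test, the replicate block or the endothelial covariate. KC against vehicle had 0 collagen calls under each setting. Over all genes it also had 0 calls, except for 92 without vehicle replicate 1, so the collagen count says nothing particular to these genes. The same replicate numbers did not deviate together (r from -0.365 to 0.362 over 10 pairs), so the replicate block rests on numbers alone. Medians over the 44 genes moved by less than the spread between arrays (SD 0.201 to 0.315). Of 55 named differences with an unadjusted p of 0.05 or more, 29 changed sign under some setting, and of the 8 with a smaller p, 0 did. The 8 were picked by that p, and several settings leave the difference itself unchanged, so the 0 is no separate test. The comparisons with vehicle rest on 3 vehicle arrays, 2 of them high in liver and tendon transcripts.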
